A study of Mus musculus with 16 samples.

Results

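The regions described here are 845 wide H3K4me3 peaks that the mouse line with a wild-type PRDM9 transgene (B6-TgWT) held and the other lines did not. A peak was a member when it was at least 2000 bp wide, lay on chromosomes 1 to 19 and overlapped no peak of the B6 list and no peak of the B6-TgYF list by 1 bp. They are 845 of 141331 peaks in the 3 deposited lists, and 845 of the 7960 B6-TgWT peaks of that width on these chromosomes. Width and absence from the other lists chose the members, so both are given below as descriptions. No test was run on any value, because each line had 1 peak list with no value per replicate. The labels of 2 ChIP libraries and 1 input of a line cite its list. The 95% Wilson intervals of shares and the exact binomial intervals of medians cover counting error over peaks only. Peaks are not replicates of a line.

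Whole testes of mice aged 13 days, when the first wave of germ cells is in meiotic prophase, were profiled by H3K4me3 ChIP-seq. The B6 mice were C57BL/6JOlaHsd without a transgene, the B6-TgWT mice were C57BL/6J-Tg(RP23-159N6*)43Bdm and the B6-TgYF mice were C57BL/6JRj-Tg(RP23-159N6*)23Bdm. From what is known of the study, both transgenes are modified bacterial artificial chromosomes that encode PRDM9 with the zinc fingers of a Mus musculus castaneus allele. The YF form carries a substitution in the catalytic domain. No Prdm9 deletion is named in the labels of these 3 lines, so the resident Prdm9 of B6 is shared by all of them. Each transgenic line is a single line on its own C57BL/6 substrain, and a difference between lists cannot be told apart from a difference of line or substrain. Whole testis mixes germ cells and somatic cells, and fewer cells with the mark cannot be told apart from less of the mark per cell. The lists name no genes, so the tissue label was not checked against marker genes.

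PRDM9 is expressed in germ cells at the start of meiosis. It binds DNA through an array of zinc fingers that differs between alleles, and its PR/SET domain trimethylates lysines 4 and 36 of histone H3 on the nucleosomes around the binding site. Meiotic DNA double-strand breaks form at the sites so marked. H3K4me3 is also the usual mark of active promoters, where PRDM9 is not needed for it. At sites bound by PRDM9, the bound DNA is known to be flanked on both sides by marked nucleosomes, with little mark at the binding site itself.

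Wide peaks found in a single list were almost all B6-TgWT peaks. In the B6-TgWT list, 10.6% of the peaks of at least 2000 bp (interval 9.96 to 11.3) were absent from both other lists, against 19.2% of its peaks of all widths. In the B6 list, 4 of 8905 such wide peaks were absent from both other lists, which is 0.0449% (interval 0.0175 to 0.115). In the B6-TgYF list, they were 2 of 7623, or 0.0262% (interval 0.0072 to 0.0956). Narrower peaks were spread differently. Under 2000 bp, 20.7% of the B6 peaks, 1.32% of the B6-TgYF peaks and 20.9% of the B6-TgWT peaks were absent from both other lists. Absence from a list means that no peak was called there, and the read depth behind the lists is unknown.

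The 6 wide peaks of the other lists were weak. The fold enrichment, which is the authors' ratio of ChIP signal to background at a peak, was 3.57 to 4.96 at the 4 wide peaks of B6 alone. These lay at chr7:31754083-31756140, chr7:116778577-116781215 and chr7:118124094-118126212, and at chr9:58004856-58007009 (all coordinates are mm9, counted from 1). The 2 wide peaks of B6-TgYF alone lay at chr17:39980080-39983684 (fold 1.45) and at chr7:24889226-24891241 (fold 2.90). By contrast, the median fold enrichment among the 845 members was 8.99 (interval 8.67 to 9.24) and the highest was 17.85. The lowest member, at 3.02, was below the 4 wide peaks of B6 alone. These folds come from different lists and show no change by themselves.

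Few B6-TgWT peaks absent from B6 were in the list of the catalytic mutant, whatever their width. Among the 849 wide ones, the B6-TgYF list overlapped 4 (0.471%, interval 0.183 to 1.21), which the rule therefore left out. Under 2000 bp it overlapped 68 of 8153 (0.834%, interval 0.658 to 1.06), and the intervals overlapped. Of the B6-TgWT peaks under 2000 bp that overlapped B6, 29176 also overlapped B6-TgYF and 1342 did not. The B6-TgYF list itself had few peaks outside the other lists, 2 wide and 447 narrower ones, which limits such overlaps for any set. At each of the 4 wide peaks the B6-TgYF peak was narrow and weak. At chr8:87239451-87241695, a B6-TgWT peak of 2245 bp and fold 12.65 contained a B6-TgYF peak of 655 bp and fold 3.43. At chr13:117836697-117839494, the B6-TgWT peak had 2798 bp and fold 9.18, and the B6-TgYF peak 256 bp and fold 3.55. The remaining pairs lay at chr10:117807242-117809562 (2321 bp against 622 bp) and at chr15:57629469-57631542 (2074 bp against 375 bp). Another 32 wide B6-TgWT peaks overlapped B6 but not B6-TgYF, with widths of 2010 to 3267 bp and a median fold of 7.79. The other 7079 wide B6-TgWT peaks overlapped both lists, and these shared wide peaks serve as the comparison below.

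The members were only a little wider than the limit. Their width ran from 2000 to 6303 bp, with a median of 2255 bp, and 410 of the 845 were under 2250 bp. Only 40 members (4.73%, interval 3.5 to 6.38) reached 3000 bp. The shared wide peaks ran up to 11096 bp with a median of 2449 bp. In the B6-TgWT list, the share of peaks absent from both other lists fell along the width classes from 15.4% at 2000 to 2249 bp through 13.2%, 8% and 3.21% to 0.545% at 4000 bp and more, where it was 2 of 367 peaks. The 2000 bp limit cut through a continuous range. The 92 members of 2000 to 2049 bp had a median fold of 7.96, and the 123 B6-TgWT-only peaks of 1950 to 1999 bp had 8.27.

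The members were of intermediate strength. Of the 845, 685 (81.1%, interval 78.3 to 83.6) lay in the stronger 50% of the B6-TgWT list by fold enrichment, but only 8 lay in its strongest 20%. The shared wide peaks were mostly in the top of the list, with 4774 of 7079 (67.4%) in the strongest 20%. Their median fold was 20.8, and 63.3% of them exceeded the highest member. The −log10 p of the authors' caller had a median of 73.2 in the members (lowest 14.7, highest 195) and of 257 in the shared wide peaks. The B6-TgWT-only peaks under 2000 bp were weaker than the members, with a median fold of 4.97 and a median −log10 p of 26.0.

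At equal width, members had lower fold enrichment than shared peaks. Between 2000 and 2249 bp the median fold was 8.32 in 410 members (quartiles 7.01 and 10) and 20.3 in 2233 shared peaks (quartiles 13.5 and 25.9). Between 2500 and 2999 bp it was 10.3 in 154 members (quartiles 8.33 and 11.9) and 21.8 in 1761 shared peaks (quartiles 15.5 and 26.5). The quartile ranges of the groups did not overlap in any class from 2000 to 3999 bp. Below 1000 bp, B6-TgWT-only and shared peaks were much closer, with median folds of 4.32 and 5.10 at 500 to 999 bp. Both sets come from the same libraries of the same list, so these folds are on 1 scale.

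**Figure D1:**
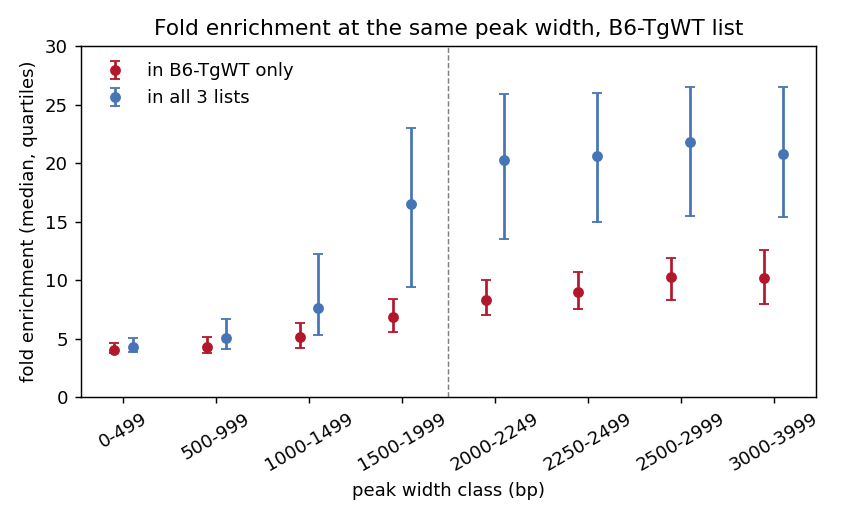
Fold enrichment (vertical axis, ratio to background) of B6-TgWT peaks by width class (horizontal axis, bp), for peaks in the B6-TgWT list only (red) and in all 3 lists (blue); points are medians and bars run from the lower to the upper quartile, and the dashed line marks 2000 bp. From 2000 to 3999 bp, the medians of the red points lie between 8.32 and 10.3 and those of the blue points between 20.3 and 21.8; the class of 4000 bp and more, with 2 red peaks of median fold 11, is not drawn.

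Read the other way, B6-TgWT-only peaks were wider than shared peaks of the same strength. At a fold of 6 to 8 the median width was 1460.5 bp (interval 1440 to 1484) for 1856 B6-TgWT-only peaks and 1075 bp (interval 1062 to 1087) for 5041 shared peaks. At a fold of 10 to 12 it was 1957 bp (interval 1915 to 2027) for 403 peaks and 1369 bp (interval 1344 to 1405) for 2020. At a fold of 12 to 14 it was 2170.5 bp (interval 2082 to 2282) for 114 peaks and 1546 bp (interval 1501 to 1579) for 1674. The same order held in each class from a fold of 3 to 18, although the classes of 14 to 16 and 16 to 18 held only 31 and 16 B6-TgWT-only peaks. It turned in the class of 18 to 20, where the list had only 2 such peaks, of 1167 and 1713 bp, against a median of 1891 bp for shared peaks.

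From a fold of 6 to 18, the share of peaks that reached 2000 bp followed the same pattern. Members made up 187 of the 403 B6-TgWT-only peaks at a fold of 10 to 12, or 46.4% (interval 41.6 to 51.3), while 392 of 2020 shared peaks of that strength were as wide (19.4%, interval 17.7 to 21.2). At a fold of 12 to 14 the shares were 64.0% (interval 54.9 to 72.3) and 26.0% (interval 24.0 to 28.2). At a fold of 16 to 18, 14 of 16 B6-TgWT-only peaks were members. At a fold of 4 to 6 the shares were 2.1% (interval 1.69 to 2.6) and 1.56% (interval 1.33 to 1.83). At a fold of 3 to 4 they were 0.395% and 0.594%. In both of these classes the intervals overlapped. Among the members, width and fold enrichment were loosely related, with a Spearman's rho of 0.28 across 845 peaks of the same libraries. Across the 7079 shared wide peaks rho was 0.06. Under 2000 bp, rho was 0.51 in the B6-TgWT-only peaks and 0.64 in the shared peaks. The 2000 bp limit restricts the range of widths in each set, so these values are not on equal terms.

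**Figure D2:**
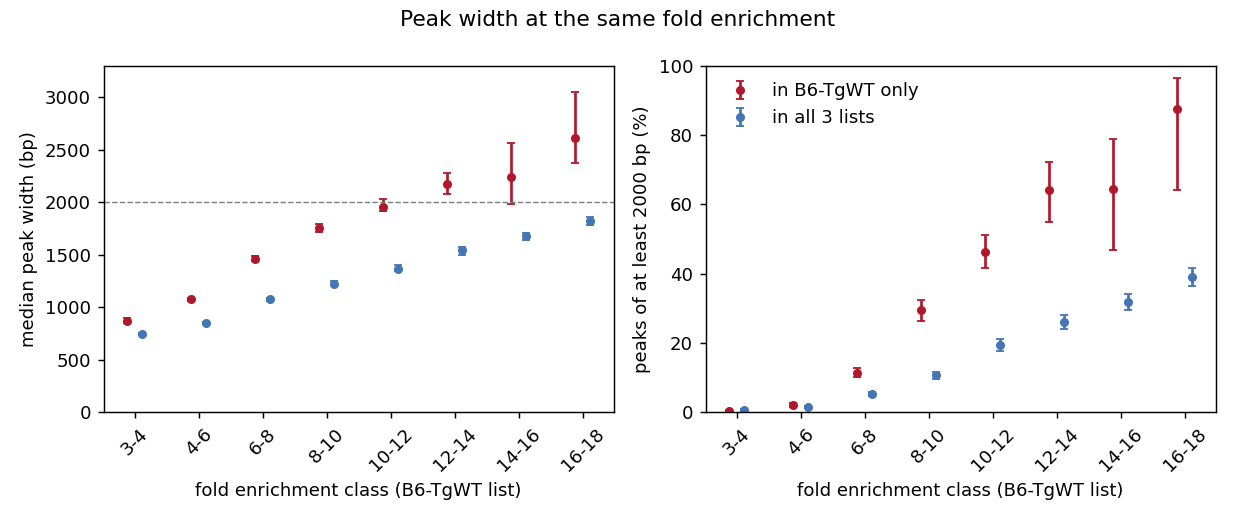
Median peak width (left, bp, with exact binomial 95% intervals) and share of peaks of at least 2000 bp (right, percent, with Wilson 95% intervals) by class of fold enrichment in the B6-TgWT list, for peaks in that list only (red) and in all 3 lists (blue). From a fold of 3 to 18 the red points rise from 873 to 2609 bp and the blue ones from 749 to 1822 bp; classes above 18, which held 2 red peaks, are not drawn, and the dashed line marks 2000 bp.

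The summit, the position of the highest signal in a peak, tended to lie to one side of the middle in the members. Only 111 of 845 members (13.1%, interval 11 to 15.6) had it within 100 bp of the middle, and 353 (41.8%, interval 38.5 to 45.1) had it 200 to 400 bp away. Counted in steps of 100 bp from the start side to the end side, members were most frequent at 300 to 200 bp before the middle (98) and at 200 to 300 bp after it (105). In between, the counts fell to 63 in the last step before the middle and to 48 in the first step after it. The summit was on the start side in 436 members and on the end side in 409, so neither side prevailed (51.6% on the start side, interval 48.2 to 55.0). The median distance from the middle was 274 bp (interval 258 to 286).

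Shared wide peaks had a single maximum of summits at the middle. Of the 7079, 1387 (19.6%, interval 18.7 to 20.5) had the summit within 100 bp of the middle and 2101 (29.7%, interval 28.6 to 30.8) had it 200 to 400 bp away. Since the groups differ in strength and width, both were also limited to 2000 to 2499 bp and a fold of 6 to 12. The summit then lay within 100 bp of the middle in 74 of 515 members (14.4%, interval 11.6 to 17.7) and in 126 of 592 shared peaks (21.3%, interval 18.2 to 24.8). It lay 200 to 400 bp away in 43.1% (interval 38.9 to 47.4) and 29.7% (interval 26.2 to 33.5). The median distances, 247 bp (interval 223 to 271) and 290 bp (interval 260 to 316), did not order the groups in the same way. The summit was 500 bp or more from the middle in 9.51% of these members (interval 7.27 to 12.4) and 22% of these shared peaks (interval 18.8 to 25.5).

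**Figure D3:**
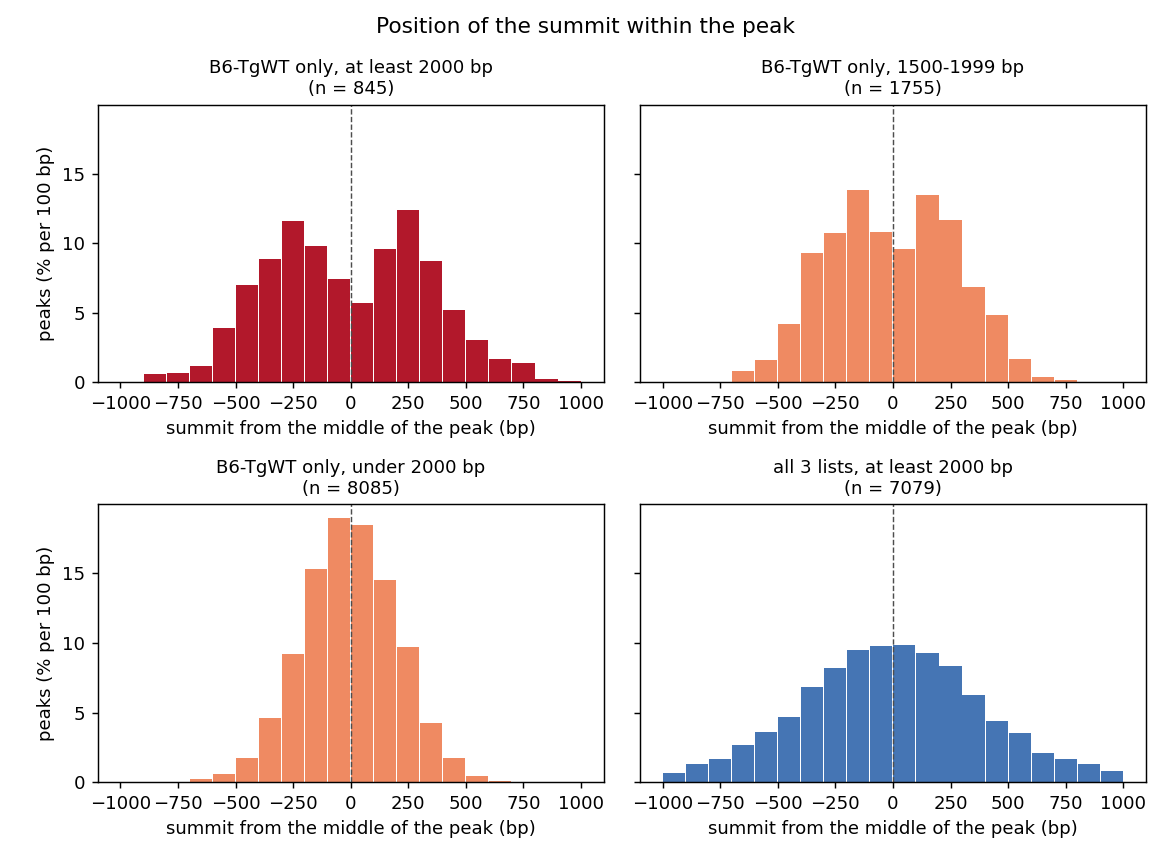
Signed distance of the summit from the middle of the peak (horizontal axis, bp, in steps of 100 bp) as a percentage of the peaks of each set (vertical axis). The members (upper left) have maxima of 11.6% and 12.4% on either side and 5.68% just after the middle, and B6-TgWT-only peaks of 1500 to 1999 bp (upper right) have maxima of 13.8% and 13.5% on either side; all B6-TgWT-only peaks under 2000 bp (lower left) and the shared wide peaks (lower right) have their maximum next to the middle; 6 members and 244 shared wide peaks lie outside the axis.

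Members of fold 8 and more had a lower share of summits near the middle than the shared wide peaks of all strengths and widths (19.6%, interval 18.7 to 20.5). The shared wide peaks were not split into the same classes of fold here. Below a fold of 8 the intervals overlapped. The share within 100 bp of the middle was 16.7% (interval 12.9 to 21.4) in 299 members below a fold of 8, 11.6% (interval 8.95 to 15) in 439 members of fold 8 to 12 and 9.35% (interval 5.16 to 16.4) in 107 members of fold 12 and more. Their median distances were 268, 273 and 290 bp, with overlapping intervals, and the median of the shared wide peaks of all strengths was 268 bp. By width, the median distance was 254 bp under 2250 bp, 255 bp from 2250 to 2499 bp and 348 bp (interval 296 to 382) in the 194 members of 2500 bp and more. Among narrower B6-TgWT-only peaks, the share within 100 bp was 20.3% at 1500 to 1999 bp and 30.2% at 1000 to 1499 bp. The dip at the middle was not limited to the members. At 1500 to 1999 bp, B6-TgWT-only peaks were most frequent at 200 to 100 bp before the middle (13.8%) and 100 to 200 bp after it (13.5%), with 10.8% and 9.57% in the steps next to the middle. Shared peaks of 1500 to 1999 bp had 33.4% within 100 bp and their maximum next to the middle (17.2%). A summit of a narrow peak cannot lie far from its middle, so shares of different width classes are not on equal terms.

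The strongest members were on chromosomes 4 and 17. The first, at chr4:140110938-140113990, had a fold of 17.85, a width of 3053 bp and its summit 289.5 bp past the middle. The second, at chr17:46066458-46069344, had a fold of 17.73 over 2887 bp, with the summit 343.5 bp past the middle. The third, at chr4:151123980-151126668, had a fold of 17.70 over 2689 bp, with the summit 265.5 bp before the middle (-265.5). All 3 distances lay between the quartiles of the members (156 and 402 bp) and of the shared wide peaks (130 and 470 bp).

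The rest of the 10 strongest had folds of 17.55 down to 16.31. In order they lay at chr11:116043113-116045665, chr17:45944872-45947423, chr14:34702174-34704685, chr8:11239488-11242796, chr10:63745974-63749253, chr2:29477597-29480173 and chr5:114954219-114956488. The members on chromosomes 8 and 10 had nearly central summits, 56.5 and 12 bp past the middle. The strong pair on chromosome 17 lay 119034 bp apart and each was the nearest member to the other.

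The 2 widest members were neighbours on chromosome 18. The widest of all lay at chr18:9488617-9494919, a width of 6303 bp with a fold of 11.06, and had its summit 1528.5 bp before the middle (-1528.5), the farthest of any member. The second widest began 7911 bp after it, at chr18:9502831-9506960, with 4130 bp and a fold of 10.95. Beside them, the B6-TgWT list had narrower peaks at chr18:9485185-9486792 (fold 4.41), chr18:9486954-9488349 (fold 4.02) and chr18:9507921-9509771 (fold 4.24). These 5 B6-TgWT-only peaks covered 15.3 kb of 24.6 kb, in which neither other list had a peak. The flanking peaks were in all 3 lists. Each list had a peak near chr18:9448730-9450981, with folds of 28.94 in B6-TgWT, 33.06 in B6-TgYF and 37.13 in B6. Each also had a peak near chr18:9554837-9555396, with folds of 4.56, 7.44 and 8.34.

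No other member lay in a group of 5. When B6-TgWT-only peaks up to 10 kb apart with no other peak between them were joined, 742 groups held a single peak, which was a member, 75 held 2 peaks with at least 1 member, 17 held 3, 3 held 4 and 1, the group on chromosome 18, held 5. The groups of 4 lay at chr1:172072926-172089789, chr7:74307057-74315869 and chr3:38360598-38371461, with 1 member each. This grouping was chosen after the values on chromosome 18 had been seen.

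The other 8 of the 10 widest members were 3773 to 3989 bp wide, with folds of 7.52 to 11.20. They lay at chr8:117520473-117524461, chr4:124591748-124595692, chr1:64745922-64749815 and chr1:20056768-20060593, chr12:46058655-46062474, chr3:100049577-100053370, chr5:48670421-48674196 and chr6:86138223-86141995. None of the 10 widest was among the 10 strongest. The 5 members with the summit farthest from the middle included the first of these 8 (-1116.5 bp) and the widest member. The others lay at chr1:74101193-74104573 (1236.5 bp), chr13:63921193-63924695 (1215.5 bp) and chr1:196473827-196476496 (-1062.0 bp).

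Members were mostly separated from peaks of the other lists by several kb. The gap to the nearest B6 or B6-TgYF peak had a lowest value of 61 bp, a median of 17656 bp (interval 15473 to 19374) and a highest value of 662405 bp. It was at most 1 kb for 26 members (3.08%, interval 2.11 to 4.47), at most 10 kb for 286 (33.8%, interval 30.7 to 37.1) and at most 100 kb for 790 (93.5%, interval 91.6 to 95). B6-TgWT-only peaks under 2000 bp had neighbours slightly more often, with 5.34% within 1 kb (interval 4.87 to 5.85) and 38.6% within 10 kb (interval 37.5 to 39.6). Their shares within 100 kb, 92.6%, and those of the members had overlapping intervals. Among members, the share within 10 kb was 40.2% below a fold of 6 (interval 30.6 to 50.7), 30.2% to 33.7% from 6 to 12 and 37.4% at 12 and more (interval 28.8 to 46.8), with overlapping intervals.

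The 5 members nearest to another list's peak sat beside peaks of very different strength. The member at chr10:120330894-120333371 (fold 7.78) lay 61 bp from a weak B6 peak of fold 4.09. At chr12:80909755-80911922 (fold 10.51), a B6 peak of fold 6.82 was 112 bp away. At chr15:98435873-98438010 (fold 10.30), the B6 peak 114 bp away was 2916 bp wide with a fold of 25.81. The members at chr7:151736065-151738359 (fold 8.46) and at chr13:38728020-38730107 (fold 6.11) lay 191 and 200 bp from strong peaks, of folds 31.66 in B6-TgYF and 33.91 in B6. At these places the 1 bp rule separates a member from a neighbouring peak of a listed site.

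The most isolated members lay on chromosomes 1, 18 and 16. The farthest, at chr1:115214706-115216898 (2193 bp, fold 7.41), was 662405 bp from a B6 peak and 786254 bp from a B6-TgYF peak. The next was at chr1:125348037-125350115 (fold 7.52), with 590484 bp to a B6 peak. The others were at chr18:17522608-17524879 (fold 9.42), chr16:61893173-61895512 (fold 8.34) and chr1:12225551-12227563 (fold 8.22). All 5 were 2013 to 2340 bp wide and had folds within the lower and upper quartile of the members, 7.29 and 10.7.

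Long stretches without B6 peaks held fewer members than their share of the length. Of 845 members, 371 (43.9%, interval 40.6 to 47.3) lay in stretches of over 100 kb between B6 peaks, which made up 55.6% of the length between B6 peaks on these chromosomes. Stretches of over 500 kb made up 16.1% of that length and held 44 members (5.21%, interval 3.90 to 6.92). The shares of narrower B6-TgWT-only peaks were 40% (interval 38.9 to 41.0) and 5.13% (interval 4.67 to 5.64). Sequence to which reads could not be placed counts in these lengths and was not removed.

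Members had close B6-TgWT-only neighbours less often than narrower B6-TgWT-only peaks did, but another member nearby more often. The gap to the nearest other B6-TgWT-only peak had a median of 74946 bp (interval 66952 to 85681), against 64727 bp (interval 62562 to 67453) for those under 2000 bp. The intervals of these medians overlapped slightly. Within 1 kb, 23 members (2.72%, interval 1.82 to 4.05) had another B6-TgWT-only peak, while 839 of the 8085 narrower ones did (10.4%, interval 9.73 to 11.1). Where the caller splits a region by a short gap, its parts are narrower and have a close neighbour. The width rule can thus bear on this difference, and how far was not tested. Another member lay within 50 kb of 68 members (8.05%, interval 6.4 to 10.1). A member lay that near to 4.64% of the narrower B6-TgWT-only peaks (interval 4.2 to 5.12) and 4.46% of the shared wide peaks (interval 4.01 to 4.97). Within 100 kb the shares were 11.7% (interval 9.72 to 14.1), 8.92% (interval 8.32 to 9.56) and 8.46% (interval 7.84 to 9.13). Within 10 kb the intervals of the members and the narrower B6-TgWT-only peaks overlapped, at 1.42% and 1.39%. Both members of a pair count in the first share, which its interval does not allow for. The gap between members had a median of 757939 bp, and 746 members had no other within 100 kb. There were 45 pairs within 100 kb and 3 runs of 3.

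The runs of 3 were on chromosomes 1, 11 and 2. On chromosome 1, members at chr1:51876814-51878829, chr1:51908281-51910386 and chr1:51931492-51933527 had folds of 9.88, 12.67 and 7.29. On chromosome 11, those at chr11:4267879-4270310, chr11:4307065-4309755 and chr11:4379713-4381932 had 10.81, 8.13 and 7.21. On chromosome 2, those at chr2:25704772-25707113, chr2:25738574-25740680 and chr2:25781762-25783842 had 6.31, 10.25 and 10.46. Folds thus ran from 6.31 to 12.67 over the 9 members of runs.

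**Figure D4:**
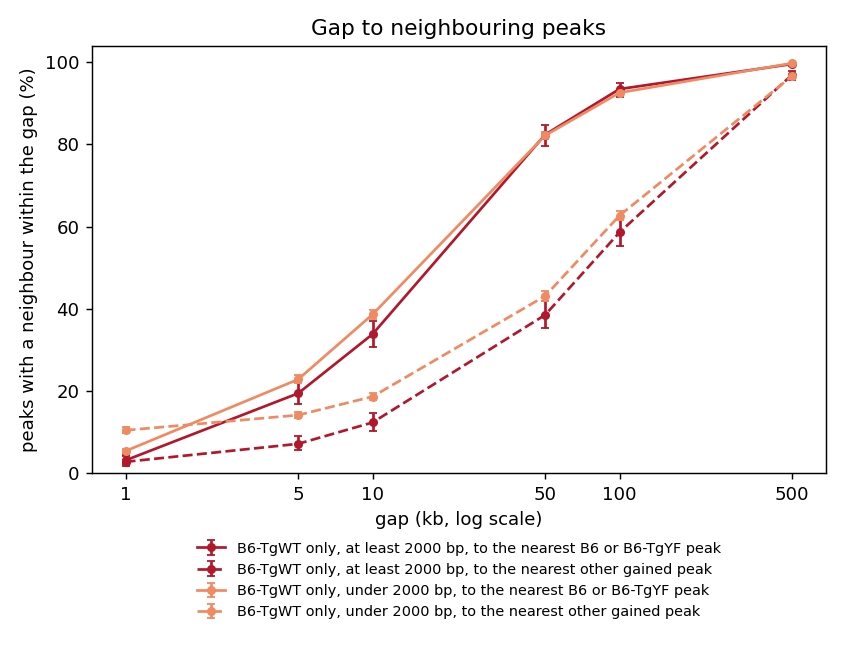
Share of peaks (vertical axis, percent, with Wilson 95% intervals) that have a neighbouring peak within a given gap (horizontal axis, kb, log scale), for members (red) and B6-TgWT-only peaks under 2000 bp (orange). Solid lines give the nearest B6 or B6-TgYF peak and dashed lines the nearest other B6-TgWT-only peak; within 10 kb the solid lines are at 33.8% and 38.6% and the dashed lines at 12.3% and 18.6%.

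Each autosome held members, from 25 on chromosome 16 to 91 on chromosome 2. Relative to the span between the first and last peak, chromosome 2 had 5.09 and chromosome 11 had 5.05 members per 10 Mb, and chromosome 3 had 1.86. These densities do not allow for the number of peaks on a chromosome. Members were 13.4% of the wide B6-TgWT peaks of chromosome 2 (interval 11 to 16.2). On chromosome 11 they were 9.16% (interval 7.18 to 11.6), against 10.6% over the autosomes. As a share of a chromosome's wide B6-TgWT peaks, members ranged from 7.14% on chromosome 10 (interval 4.99 to 10.1) and 7.42% on chromosome 3 (interval 5.21 to 10.4) to 14.3% on chromosome 1 (interval 11.5 to 17.6) and 14.3% on chromosome 18 (interval 10.6 to 19). The intervals of chromosomes 1 and 10 did not overlap, but these are the extremes of 19 chromosomes and no test was made. As a share of a chromosome's B6-TgWT-only peaks of all widths, their intervals overlapped. Members were then 10.4% on chromosome 1 (interval 8.34 to 12.9) and 6.86% on chromosome 10 (interval 4.79 to 9.74). The median fold of members per chromosome ran from 8.20 on chromosome 13 to 10.1 on chromosome 4.

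Along the chromosomes, members were placed much as the narrower B6-TgWT-only and the shared wide peaks were. These sets all differed from the narrower shared peaks in the first and last 10% of the span. The last 10% of the span held 96 members (11.4%, interval 9.39 to 13.7), 13.0% of the narrower B6-TgWT-only peaks (interval 12.3 to 13.8) and 12.9% of the shared wide peaks (interval 12.1 to 13.7). The first 10%, near the centromere in mouse chromosomes, held 71 members (8.40%, interval 6.71 to 10.5), 7.97% (interval 7.39 to 8.58) and 7.39% (interval 6.80 to 8.02). The intervals of the members overlapped those of both these sets at either end. The 29176 shared peaks under 2000 bp had 14.3% in the last 10% (interval 13.9 to 14.7) and 6.39% in the first 10% (interval 6.12 to 6.68). At both ends, these intervals lay apart from those of the members, the narrower B6-TgWT-only peaks and the shared wide peaks. For the members in the first 10% they nearly met, at 6.71 and 6.68. In the last 5 Mb, the members (4.97%, interval 3.70 to 6.65) and the shared peaks under 2000 bp (5.43%, interval 5.18 to 5.70) had overlapping intervals.

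**Figure D5:**
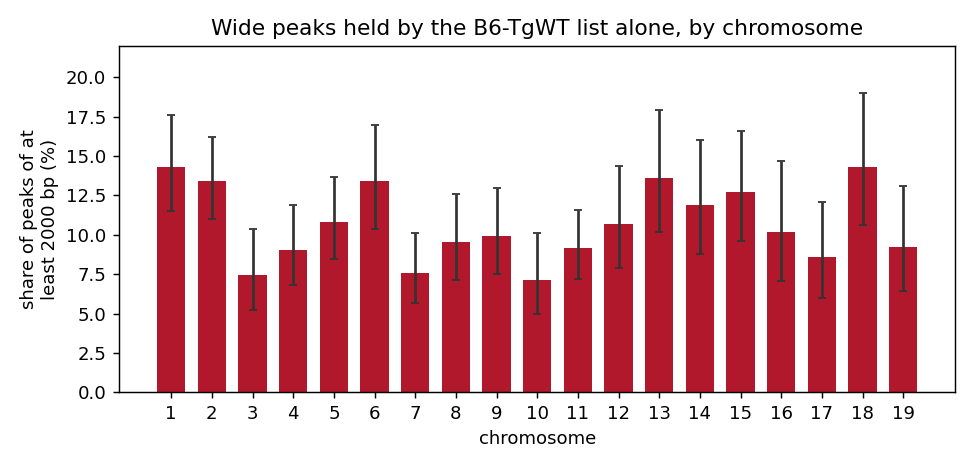
Members as a share of all B6-TgWT peaks of at least 2000 bp (vertical axis, percent, with Wilson 95% intervals) on each autosome (horizontal axis). The bars run from 7.14% on chromosome 10 to 14.3% on chromosomes 1 and 18.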

How the data were processed

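The authors deposited a single H3K4me3 peak list for each of the 3 lines, and the labels of 2 ChIP libraries and 1 input cite it. CASAVA, Bowtie2, BWA, MACS2 and mm9 are named, without roles, in the submitters' processing notes; how replicates were combined is not given in the sources used here. The B6 list is named for 12 days and its samples are labelled 13 days. Each list has 10 columns, read in MACS order. The deposited fold enrichment is the ratio to background by the authors' caller. The −log10 p and −log10 q in the authors' deposited table and the deposited score (10 times the −log10 p, truncated) come from the same caller. Samples were grouped by antibody and line. Of 16 samples, the 7 DMC1 libraries were not used here. Read depth is unknown.

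Overlaps, gaps, summit positions and intervals were computed with Python 3.11.15, numpy 2.4.6, pandas 2.3.3 and scipy 1.17.1. The code was tested on 3000 simulated intervals, where classes and gaps were recovered in 100% of cases. Named members were the 10 widest, the 10 highest in fold, the 5 farthest from and the 5 nearest to another list's peak, the 5 with the most off-centre summit and the largest runs. The members and comparisons were chosen with earlier results of these data known. The gene and promoter tables at hand are of GRCm38, not mm9, so no gene, exon, intron or sequence is given for a region.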

Additional observations from a re-analysis of the deposited data

How the results depend on the processing

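Of 66 alternative values over 6 results, 47 lay within the interval of the value reported or within 1.5 times the count, and 19 did not. Most of the 19 came from another width minimum, which changes the members by construction. At 1500, 2500 and 3000 bp there were 2600, 194 and 40 members. Their median fold was 7.43, 10.3 and 10.3, their median summit distance from the middle 228, 348 and 493 bp, and the share with the summit within 100 bp of it 18%, 9.28% and 7.5%. Of the B6-TgWT-only peaks of fold 10 to 12, 77.4%, 14.1% and 2.48% reached these widths. At 3000 bp, 37.5% lay within 10 kb of a B6 or B6-TgYF peak. With only the stronger 50% of the other lists, the 1014 members had a median fold of 8.58, and 44.9% lay within 10 kb of a peak of the full lists, since members could then overlap one. Keeping B6-TgWT peaks of −log10 q at or above the median gave 747 members and a median fold of 9.34. Leaving out the 9 members in runs of 3, added after the data were seen like all alternatives for the 2 shares by summit and by width, gave values within the intervals. No paired analysis was possible because a single list stands for both replicates of a line, and leaving out a replicate was not run for the same reason. Unknown depth limits all calls of absence.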

Other observations

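Chromosome X was outside the rule. There, 8 of 160 wide B6-TgWT peaks overlapped neither other list (5%, interval 2.56 to 9.56), against 10.6% on the autosomes (interval 9.96 to 11.3). Among B6-TgWT-only peaks of all widths, the wide ones were 8 of 123 on chromosome X and 845 of 8930 on the autosomes. No intervals were computed for these shares, and whether chromosome X differs by this measure was not tested. Peaks of the caller can be split by short gaps, and 45 members (5.33%, interval 4 to 7.05) had another B6-TgWT peak within 1000 bp, against 819 of 7079 shared wide peaks (11.6%, interval 10.8 to 12.3).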
